A study of Homo sapiens with 12 samples.

Results

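The thioredoxin and peroxiredoxin system was followed through 10 genes, TXN, TXNRD1, SRXN1, TXNIP and PRDX1 to PRDX6, chosen by symbol from the 23615 genes of the deposited tables. All 10 had enough counts to be tested. RNA was sequenced from HEK293T, a human embryonic kidney line, in 6 groups of 2 biological replicates, 12 libraries in all. The shHuR line carried a pLKO lentiviral hairpin against HuR, the RNA-binding protein encoded by ELAVL1, and the shControl line a control hairpin. Each line was left untreated, given 25 µM HNE alkyne for 18 h, or given 225 µM hydrogen peroxide (H2O2) for 18 h. HNE is hydroxynonenal, an electrophile formed from oxidized lipids, here in a form tagged with an alkyne. All 6 groups had thus been transduced and selected with puromycin, and no vehicle is named for the untreated cells. The labels do not say whether each line is a single clone or a selected pool. Each was treated as 1 population, so the hairpin and the history of its line cannot be told apart. The comparisons ask how HuR depletion and each stressor alter the transcripts of the system.

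Thioredoxin, encoded by TXN, is a small protein that reduces disulfides in other proteins. Thioredoxin reductase (TXNRD1), a selenoprotein, returns it to the reduced state with electrons from NADPH, and TXNIP binds reduced thioredoxin and blocks it. Peroxiredoxins destroy peroxides through a reactive cysteine, and most are recharged by thioredoxin. Sulfiredoxin (SRXN1) rescues peroxiredoxins whose cysteine has been overoxidized. TXN, TXNRD1, SRXN1 and PRDX1 are known targets of NRF2, the transcription factor encoded by NFE2L2, which is held down by KEAP1 and binds antioxidant response elements. TXNIP is known as a target of glucose-sensing MondoA and ChREBP (MLXIP and MLXIPL), which bind carbohydrate response elements.

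The 2 genes on which the results turn, TXNRD1 and TXNIP, have the following start regions in RefSeq (GRCh38.p14), from 250 bases before to 20 bases after an annotated start. They are shown because the classical motifs of these regulators can be read in them. Capitals mark the motif matches.
TXNRD1, upstream start, chr12:104215529-104215798, plus strand: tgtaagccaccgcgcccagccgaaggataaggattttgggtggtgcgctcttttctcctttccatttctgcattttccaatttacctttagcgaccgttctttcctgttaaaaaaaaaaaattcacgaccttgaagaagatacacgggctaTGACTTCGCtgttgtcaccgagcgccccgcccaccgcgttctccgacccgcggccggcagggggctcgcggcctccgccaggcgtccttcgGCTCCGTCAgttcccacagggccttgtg
TXNRD1, downstream start, chr12:104286782-104287051, plus strand: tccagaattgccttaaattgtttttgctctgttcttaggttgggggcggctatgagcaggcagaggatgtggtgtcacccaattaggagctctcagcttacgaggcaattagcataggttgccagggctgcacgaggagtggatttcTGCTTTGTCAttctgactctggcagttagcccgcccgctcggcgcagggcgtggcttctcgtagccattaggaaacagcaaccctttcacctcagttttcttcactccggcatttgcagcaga
TXNIP, chr1:145996560-145996829, minus strand: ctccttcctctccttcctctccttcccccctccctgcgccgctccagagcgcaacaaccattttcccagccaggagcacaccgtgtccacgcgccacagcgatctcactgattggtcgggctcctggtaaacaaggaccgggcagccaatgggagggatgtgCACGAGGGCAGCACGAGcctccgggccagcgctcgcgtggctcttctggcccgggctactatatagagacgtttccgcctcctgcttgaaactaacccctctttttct

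The core of the antioxidant response element, TGACNNNGC, was searched on both strands, with N for any base. It occurred in 12.0% of the 35116 RefSeq windows of this length, and its longer form TGACNNNGCA in 2.85%. Of the 8 members with a window (11 windows), only TXNRD1 held the core. Its upstream window had it on the plus strand at -99 to -91 from the start and on the minus strand at -8 to 1. Its downstream window had the longer form, which contains the core, on the minus strand at -103 to -94. The pattern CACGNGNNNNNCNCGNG of the carbohydrate response element, searched likewise, occurred in 0.461% of all windows. Among the members it was found only in TXNIP, at -88 to -72 on the plus strand of the printed sequence. A further TXNIP window, chr1:145995725-145995994, is not printed and held no match. A match describes the letters of a window and is no record of binding. The antioxidant core in 1 of 8 members is near its 12.0% share of all windows. Bases outside the windows were not searched, so a member without a match may hold either motif elsewhere. PRDX1 and PRDX6 had no entry in the table.

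In GENCODE release 29 (GRCh38), TXN lies at chr9:110243811-110256640 on the minus strand, TXNRD1 at chr12:104215779-104350305 on the plus strand and TXNIP at chr1:145992435-145996600 on the minus strand. SRXN1 lies at chr20:646615-653370 on the minus strand. PRDX1 and PRDX6 are both on chromosome 1, at 45511036 to 45523047 and 173477266 to 173488807, and the other peroxiredoxin genes are on chromosomes 19, 10, X and 11 in the order PRDX2 to PRDX5. All 10 are protein-coding, and the values below are sums over each whole gene. The same annotation holds 7 pseudogenes named after TXN, 4 each after PRDX2 and PRDX3 and 1 each after PRDX1 and PRDX4. Reads of these 5 genes could be shared with such copies, so their levels are less certain.

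Total counts ran from 24855946 to 29907256 per library, and the 10 members together took 0.230% to 0.285% of them. Replicates of a group differed by more than sampling noise (chi-square per degree of freedom 3.02 to 22.6), so no library was a copy of another. The 22.6 belonged to the pair of HNE-treated shControl libraries, which stood furthest apart. Some of the results that rest on them, though not all, are also given without each. ELAVL1 transcript was at 86.0 to 99.4 CPM (counts scaled to library size) in the 6 shControl libraries and at 69.3 to 74.5 CPM in the 6 shHuR libraries. The fitted log2 ratio was -0.38 (SE 0.0405, edgeR adjusted p = 2.60e-06), so the transcript was lowered but not removed. Of 8 genes reported for HEK293T, PAX2 was nearly absent (0.144 to 0.491 CPM). Their summed level was 729 to 818 CPM in shControl and 618 to 679 CPM in shHuR. VIM alone was at 345 to 521 CPM over all libraries, so the sum mostly follows that gene. The summed level of 10 markers of blood, endothelium, liver and fibroblasts was 2.48 to 5.23 CPM in all libraries. Most of it was COL1A1, at 2.17 to 4.86 CPM, and HBB was at 0 in each. In bulk RNA, fewer cells of a kind and less RNA per cell cannot be told apart.

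Per unit of transcript length, the members kept a common order. The authors' FPKM values (fragments scaled to gene length and library size) placed PRDX1 first in all 12 libraries, with 676 to 1007 FPKM (median 799). TXN came second in all 12, with 456 to 722 FPKM (median 514). PRDX2, PRDX3 and PRDX4 overlapped, at 214 to 278, 222 to 263 and 232 to 303 FPKM, and traded places between libraries. PRDX6 (174 to 203 FPKM) and PRDX5 (135 to 222 FPKM) likewise traded places. TXNRD1 was eighth in every library (57.6 to 108 FPKM), SRXN1 ninth (15.4 to 21.5 FPKM) and TXNIP last (2.86 to 8.63 FPKM). The inhibitor was therefore the scarcest transcript of the system and thioredoxin with PRDX1 the most abundant.

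**Figure D1:**
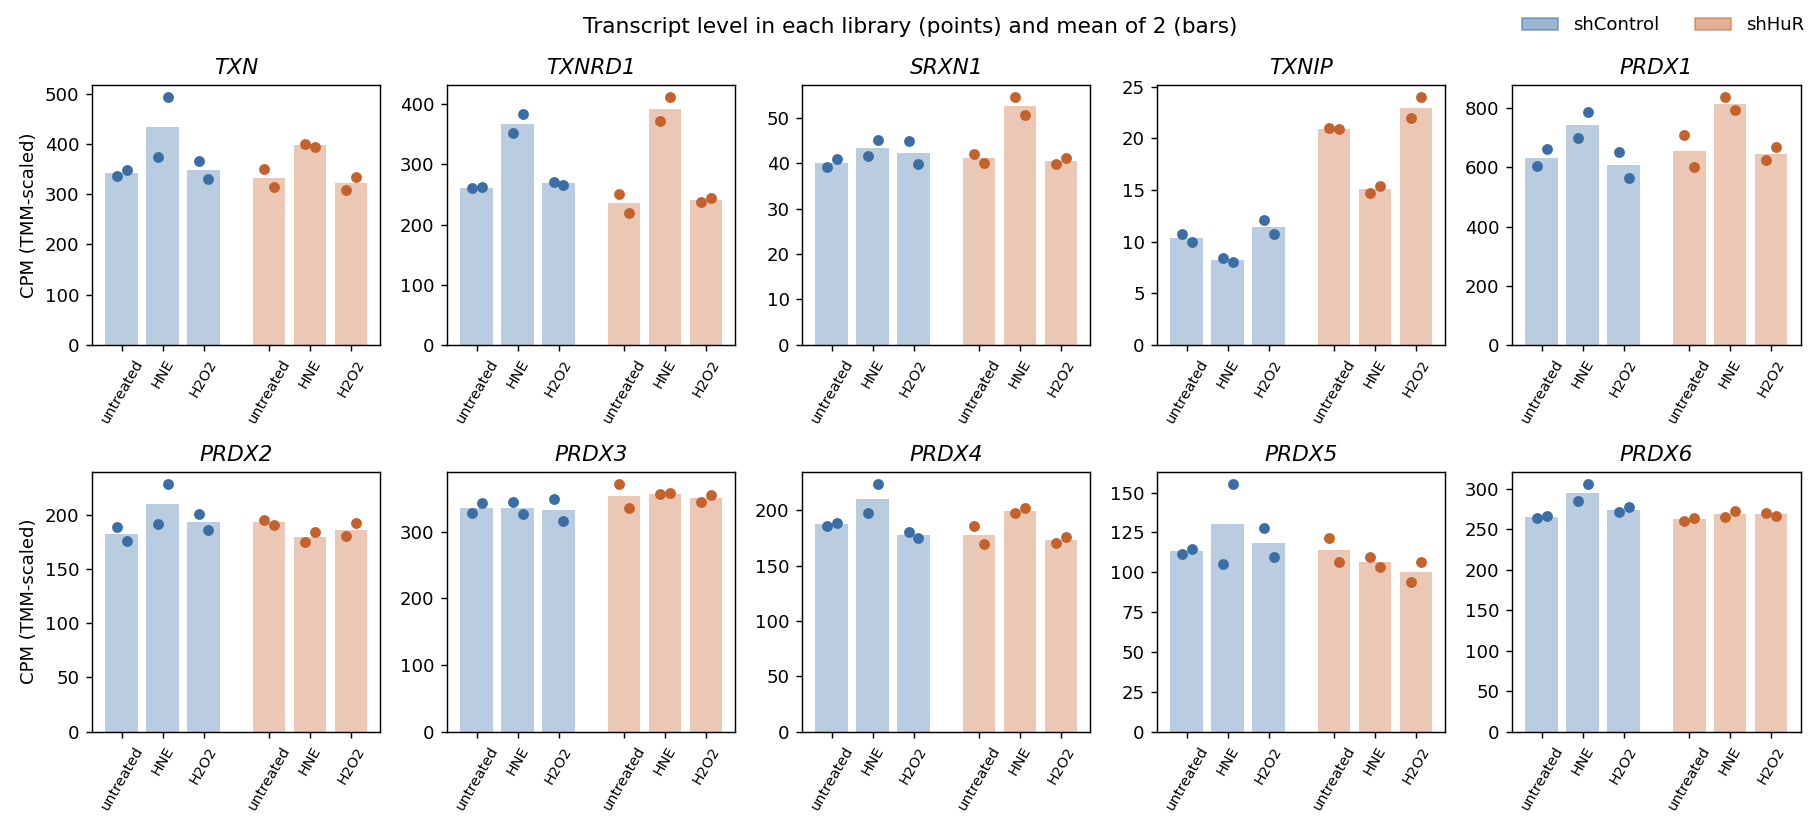
Level of each of the 10 members in CPM (TMM-scaled, each axis from 0) by line and treatment. Points are single libraries and bars the mean of 2. TXNRD1 stands higher with HNE in both lines, at 352 to 411 CPM against at most 270.3 CPM elsewhere, and TXNIP stands higher in shHuR under every treatment.

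HNE raised TXNRD1, the reductase that keeps thioredoxin working. Untreated cells held 260.2 and 262 CPM of TXNRD1 in shControl and 251 and 219.9 CPM in shHuR. With HNE these became 352 and 383 CPM in shControl and 372 and 411 CPM in shHuR. All 4 HNE libraries lay above all 8 others, and the 2 lines overlapped with HNE. Over both lines the level rose 1.53-fold (log2 fold change 0.62, SE 0.0664, 95% interval 0.47 to 0.76, edgeR adjusted p = 0.00136). Within shHuR the rise was 1.66-fold (0.73, SE 0.0766, edgeR adjusted p = 0.000895). Within shControl the estimate was 1.41-fold (0.50, SE 0.0764) and missed the threshold (edgeR adjusted p = 0.0586). The log2 fold change in shControl was 0.55 without shControl HNE replicate 1 and 0.44 without replicate 2. Of 10 alternative fits with no single library left out, 3 called this rise. Their adjusted p ran from 1.01e-07 to 0.472. The difference between the lines in the response was 0.24 (95% interval 0.01 to 0.47, edgeR adjusted p = 0.727), so a stronger response in shHuR was not shown. The rise over both lines was not called by limma on FPKM, with adjusted p between 0.0611 and 0.165 in 3 such fits, and that within shHuR was not called in 1 of them (0.0562).

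Thioredoxin itself showed a smaller difference that did not pass the test. TXN stood at 337 and 347 CPM in untreated shControl and 351 and 314 CPM in untreated shHuR. With HNE it was at 374 and 493 CPM in shControl and 400.5 and 394 CPM in shHuR. All 4 HNE libraries lay above the 8 others, and the 493 CPM of shControl replicate 2 stood well above the other 3. The log2 fold change over both lines was 0.30 (SE 0.0746, edgeR adjusted p = 0.146, unadjusted p = 0.00127). Without shControl HNE replicate 1 it was 0.37 with adjusted p = 0.0366, and without replicate 2 it was 0.21 with adjusted p = 0.0700. DESeq2's Wald test and the fit without a filter on low counts also called TXN (adjusted p = 0.0108 and 0.000147).

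PRDX1, the most abundant peroxiredoxin and a cytosolic one, was at 604 and 661 CPM in untreated shControl and 699 and 786 CPM with HNE. In shHuR it was at 710.0 and 603 CPM untreated and 837 and 793 CPM with HNE. In each line both HNE libraries lay above both untreated ones. The log2 fold change over both lines was 0.27 (SE 0.0629, edgeR adjusted p = 0.115), and DESeq2's Wald test and the fit without a filter called it. PRDX4, the peroxiredoxin of the endoplasmic reticulum, was at 197 to 224 CPM in the 4 HNE libraries and at 169.9 to 189 CPM in the 4 untreated ones, without overlap. Its log2 fold change was 0.17 (edgeR adjusted p = 0.245). The other peroxiredoxins were closer to 0, namely PRDX2 (0.05, cytosolic), PRDX3 (0.01, mitochondrial), PRDX5 (0.05, in mitochondria, peroxisomes and cytosol) and PRDX6 (0.10, adjusted p = 0.470), whose reaction cycle uses glutathione rather than thioredoxin. PRDX5 was at 105 and 155 CPM in the HNE-treated shControl libraries against 112 and 115 CPM untreated, so 1 library alone was high.

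Sulfiredoxin transcript was at 39.2 and 40.9 CPM in untreated shControl and 41.7 and 45.2 CPM with HNE. In shHuR SRXN1 went from 42.1 and 40.2 CPM untreated to 54.6 and 50.8 CPM with HNE, the 2 highest of the 12 libraries. The log2 fold change over both lines was 0.24 (edgeR adjusted p = 0.200). Between the lines under HNE it was 0.28 higher in shHuR (edgeR adjusted p = 0.0577), also short of the threshold. DESeq2's Wald test, scaling by library size alone and a filter of mean CPM at least 1 each called that difference, as did the fits without shControl HNE replicate 2 or either H2O2-treated shControl library. The adjusted p ran from 0.0313 to 0.327 over the alternatives.

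TXNIP, the inhibitor, was lower with HNE in every pair of groups, but the difference from untreated cells did not pass the test. It stood at 10.7 and 9.98 CPM in untreated shControl against 8.44 and 8.01 CPM with HNE. In shHuR it stood at 21.0 and 20.9 CPM untreated against 14.7 and 15.4 CPM with HNE. The HNE libraries lay below the untreated ones in each line. The log2 fold change was -0.33 in shControl (edgeR adjusted p = 0.307), -0.47 in shHuR (0.134) and -0.41 over both (SE 0.0821, adjusted p = 0.0652). Of 9 alternatives with no library left out, DESeq2's Wald test and the fit without a filter on low counts called the difference over both lines. The highest adjusted p among those 9 was 0.207. With 1 library left out, the log2 fold change ran from -0.44 to -0.38.

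Of the 10 members, HNE changed 1 over both lines (TXNRD1) at an adjusted p under 0.05, where 0.247% of 15780 genes tested were called. In shHuR alone 1 was called (0.0750% of all genes) and in shControl alone 0 (0.0187%). At an unadjusted p under 0.05 the counts were 6 of 10 over both lines (12.3% of all genes), 6 in shHuR (8.95%) and 7 in shControl (11.7%). The members' median log2 fold change over both lines was 0.13, against 0.00 for all genes, and 9 of 10 were above 0. The members were chosen with earlier results known, so these shares describe them and nothing more. The share of all genes whose libraries separate as fully is not given here, so separation without overlap is no result by itself. For the interaction of line with HNE, 0 of 10 were called (0.00% of all genes by edgeR) and 2 had an unadjusted p under 0.05 (6.73% of all genes). Those were TXNRD1 and PRDX2. DESeq2 and limma called 0 as well.

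**Figure D2:**
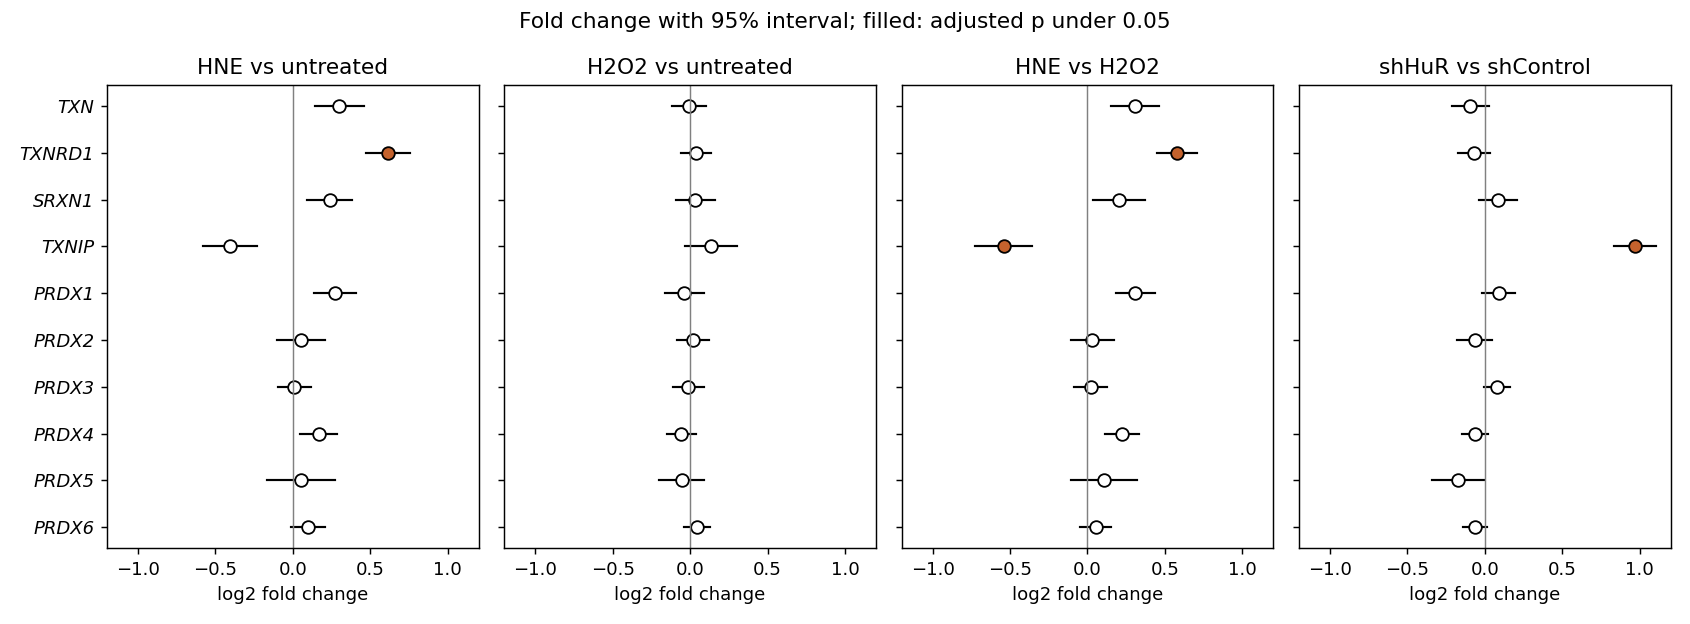
Log2 fold change (horizontal axis) of each member in the comparisons named above the panels, with 95% intervals. Filled points have an edgeR adjusted p under 0.05, and they are TXNRD1 and TXNIP alone.

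H2O2 at 225 µM left no called difference in the system after 18 h. TXNRD1 was at 270.3 and 266 CPM in shControl and 237 and 244 CPM in shHuR, a log2 fold change of 0.04 over both lines (95% interval -0.06 to 0.14). TXN was at 366 and 330.2 CPM in shControl and 309 and 334 CPM in shHuR, overlapping its untreated levels in each line. SRXN1 was at 44.9 and 39.9 CPM in shControl and 40.0 and 41.1 CPM in shHuR. These values lay among those of untreated cells or next to them. TXNIP was at 12.1 and 10.7 CPM in shControl and 21.9 and 24.0 CPM in shHuR. Its log2 fold change of 0.13 was the highest of the 10. The 6 peroxiredoxins were between -0.06 and 0.04. Over both lines the 95% intervals of all 10 members lay between -0.20 (PRDX5) and 0.30 (TXNIP), which bounds the change of each. Called members were 0 of 10 in shControl, shHuR and both lines, as were all genes (0.00% in each), and 0 of 10 had an unadjusted p under 0.05 (4.34%, 3.37% and 5.45% of all genes). For the interaction of line with H2O2, 0 of 10 were called (0.00% of all genes), and 0 at an unadjusted p under 0.05 (3.62%). DESeq2 and limma called 0 members in these 4 comparisons.

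The 2 stressors were then compared with each other, at unequal doses and with different chemistry. TXNRD1 was 1.49-fold higher with HNE (log2 fold change 0.58, SE 0.0605, edgeR adjusted p = 0.00103), with 4 of 4 HNE libraries above all 4 H2O2 libraries. Of 3 limma fits on FPKM, 2 did not call it (adjusted p = 0.0623 and 0.140). TXNIP was lower with HNE than with H2O2, by 31.3% (log2 fold change -0.54, SE 0.0860, edgeR adjusted p = 0.0315), in each line without overlap. The TXNIP call was lost in the 3 limma fits (adjusted p from 0.0759 to 0.163) and without shControl H2O2 replicate 1 (adjusted p = 0.0548). It was also lost without either H2O2-treated shHuR library (0.198 and 0.136) or either HNE-treated shHuR library (0.201 and 0.228). PRDX1 was higher with HNE by 0.31 (adjusted p = 0.0567), TXN by 0.31 (0.0989) and PRDX4 by 0.22 (0.0936), short of the threshold. DESeq2's Wald test, the fit without a filter on low counts and the fit without shControl HNE replicate 1 called all 3 of these. PRDX1 was also called with scaling by library size alone (adjusted p = 0.0452) and without shControl HNE replicate 2 (0.0474). Called members were 2 of 10, against 0.114% of all genes, and 6 of 10 had an unadjusted p under 0.05 (14.2% of all genes). This comparison shares its HNE libraries with the comparison against untreated cells, so it is no second test of TXNRD1.

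**Figure D3:**
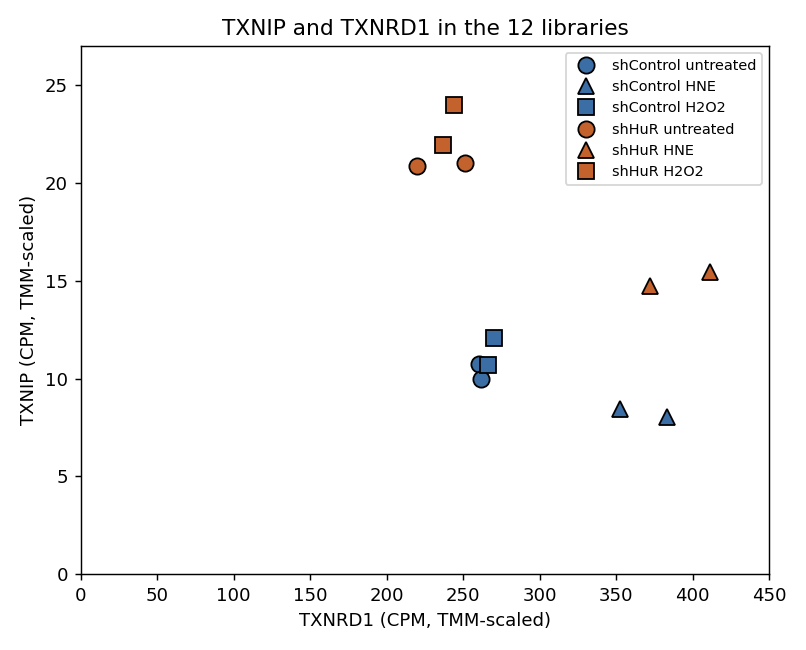
TXNIP against TXNRD1 in CPM (TMM-scaled, both axes from 0), 1 point per library, coloured by line and shaped by treatment. The 4 HNE libraries lie to the right, at 352 CPM of TXNRD1 or more, and the 6 shHuR libraries lie above the 6 shControl libraries, at 14.7 CPM of TXNIP or more.

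The shHuR line differed from shControl in 1 member, TXNIP. Over the 3 treatments TXNIP was at 14.7 to 24.0 CPM in the 6 shHuR libraries (median 20.9) and at 8.01 to 12.1 CPM in the 6 shControl libraries (median 10.3), without overlap. TXNIP was 2.02-fold higher in shHuR without treatment (1.02 on the log2 scale, SE 0.110, edgeR adjusted p = 0.000200). With HNE it was 1.83-fold higher (0.87, SE 0.114, adjusted p = 0.000694) and with H2O2 2.02-fold (1.01, SE 0.109, adjusted p = 0.000161). Over all treatments it was 1.96-fold higher (0.97, SE 0.0641, 95% interval 0.84 to 1.11, adjusted p = 1.46e-08), in 6 of 6 libraries. Between HNE-treated and untreated cells this line difference changed by -0.14 (95% interval -0.48 to 0.20, edgeR adjusted p = 0.876), which did not pass the test. These 4 calls for TXNIP held in all alternative fits run and with any 1 library left out. At 8.01 to 24.0 CPM, TXNIP was counted well above the filter for low counts. The summed HEK293T genes given above also differed between the lines, and their part in the result was not tested.

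The other 9 members did not pass the test between the lines. Over all treatments their log2 fold changes lay between -0.17 (PRDX5, adjusted p = 0.111) and 0.09 (PRDX1, adjusted p = 0.186). TXN was at -0.09 (95% interval -0.21 to 0.02) and TXNRD1 at -0.07 (95% interval -0.18 to 0.03). PRDX5 was called without a filter on low counts (adjusted p = 0.00296) and without shControl HNE replicate 1 (-0.22, 0.0302), and PRDX3 with scaling by library size alone (0.10, 0.0379). Called members were 1 of 10 in untreated cells (7.98% of all genes), 1 with HNE (8.27%), 1 with H2O2 (7.19%) and 1 over all treatments (29.9%). These shares are near the background, and the last lies below it. With HNE, PRDX5 (-0.29) and PRDX2 (-0.22) were lower in shHuR and missed the threshold. Without shControl HNE replicate 1 both passed, as did TXN (-0.30, adjusted p = 0.0328), with PRDX5 at -0.53 (0.00659) and PRDX2 at -0.33 (0.0139). Without replicate 2, PRDX5 turned to 0.021.

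The regulators of the system were also read. NFE2L2 was at 20.3 to 26.2 CPM in untreated libraries, 23.5 to 26.9 CPM with HNE and 25.6 to 29.5 CPM with H2O2, and no treatment comparison called it. KEAP1 was at 60.1 and 56.8 CPM in untreated shControl and 74.0 and 72.3 CPM in untreated shHuR, higher by 0.32 (edgeR adjusted p = 0.0274). With HNE the lines overlapped, at 65.8 and 76.5 CPM in shControl and 71.0 and 74.8 CPM in shHuR, and neither there (0.04, adjusted p = 0.831) nor with H2O2 (0.0867, 0.569) was KEAP1 called. Over all treatments it was higher by 0.15 (adjusted p = 0.0451). MLXIPL, which encodes ChREBP, was lower in shHuR over all treatments (-0.43, edgeR adjusted p = 0.00786). Its level was low, with group means of 5.12 to 6.37 CPM in shControl and 4.13 to 4.71 CPM in shHuR. MLXIP, which encodes MondoA, was not called, with group means of 19.0 to 23.9 CPM in shControl and 20.1 to 23.6 CPM in shHuR.

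A list of 36 related redox genes (other thioredoxin-like proteins, glutaredoxins, methionine sulfoxide reductases, sestrins, ribonucleotide reductase, arrestin-domain relatives of TXNIP and the carbohydrate regulators) was tested alongside. HNE, H2O2 and the interactions called 0 of 36. Among all genes, HNE called 0.247% and H2O2 0.00% over both lines, and each interaction called 0.00%. Over all treatments the lines differed in 18 of 36, with 12 higher in shHuR, 6 lower and 18 not called, against 29.9% of all genes. The median log2 fold change was 0.11, against 0.00 for all genes.

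Among reductases, TXNRD3 was lower in shHuR and called in each treatment (-0.54, -0.65 and -0.47 in untreated, HNE and H2O2). It was at 29.9 to 39.6 CPM in shControl and 20.9 to 26.4 CPM in shHuR, without overlap. TXNRD2, the mitochondrial reductase, was at -0.28 over all treatments (edgeR adjusted p = 0.0158). TXNDC12, a thioredoxin-domain protein of the endoplasmic reticulum, rose in shHuR in each treatment (0.74, 0.62 and 0.75). It was at 38.6 to 45.6 CPM in shControl and 64.8 to 70.4 CPM in shHuR. SESN3, a sestrin induced by FOXO factors, was lower in each treatment (-0.70, -0.52 and -0.54), at 114 to 156 CPM in shControl and 87.8 to 101 CPM in shHuR. TXNRD3, TXNDC5 and TXNDC12 had fractional counts in the deposited table. Reads may have been divided between genes there, which was not tested, so their levels are uncertain.

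The other called genes had fold changes over all treatments smaller than those of TXNRD3, TXNDC12 and SESN3. Higher in shHuR were TXNDC9 (0.36), TXNDC11 (0.35), TXNL4B (0.34), TXNL1 (0.23), TXNDC15 (0.22), TXNDC5 (0.18) and TXNL4A (0.14), all thioredoxin-fold proteins. GLRX2 (0.37), a mitochondrial glutaredoxin, MSRB1 (0.33), a selenoprotein that repairs oxidized methionine, RRM2 (0.22), a ribonucleotide reductase subunit, and ARRDC4 (0.19), a relative of TXNIP, were higher too. Lower were MAP3K5 (-0.25), the kinase ASK1 that reduced thioredoxin restrains, and GLRX3 (-0.13). Of 7 genes for the synthesis of selenoproteins such as TXNRD1, 2 were higher in shHuR, 1 lower and 4 not called, against 29.9% of all genes. SEPHS2 (0.35, edgeR adjusted p = 0.000879) and EEFSEC (0.19, 0.0474) were higher, and SEPSECS (-0.26, 0.0119) was lower. HNE and H2O2 called 0 of these 7, against 0.247% and 0.00% of all genes over both lines.

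**Figure D4:**
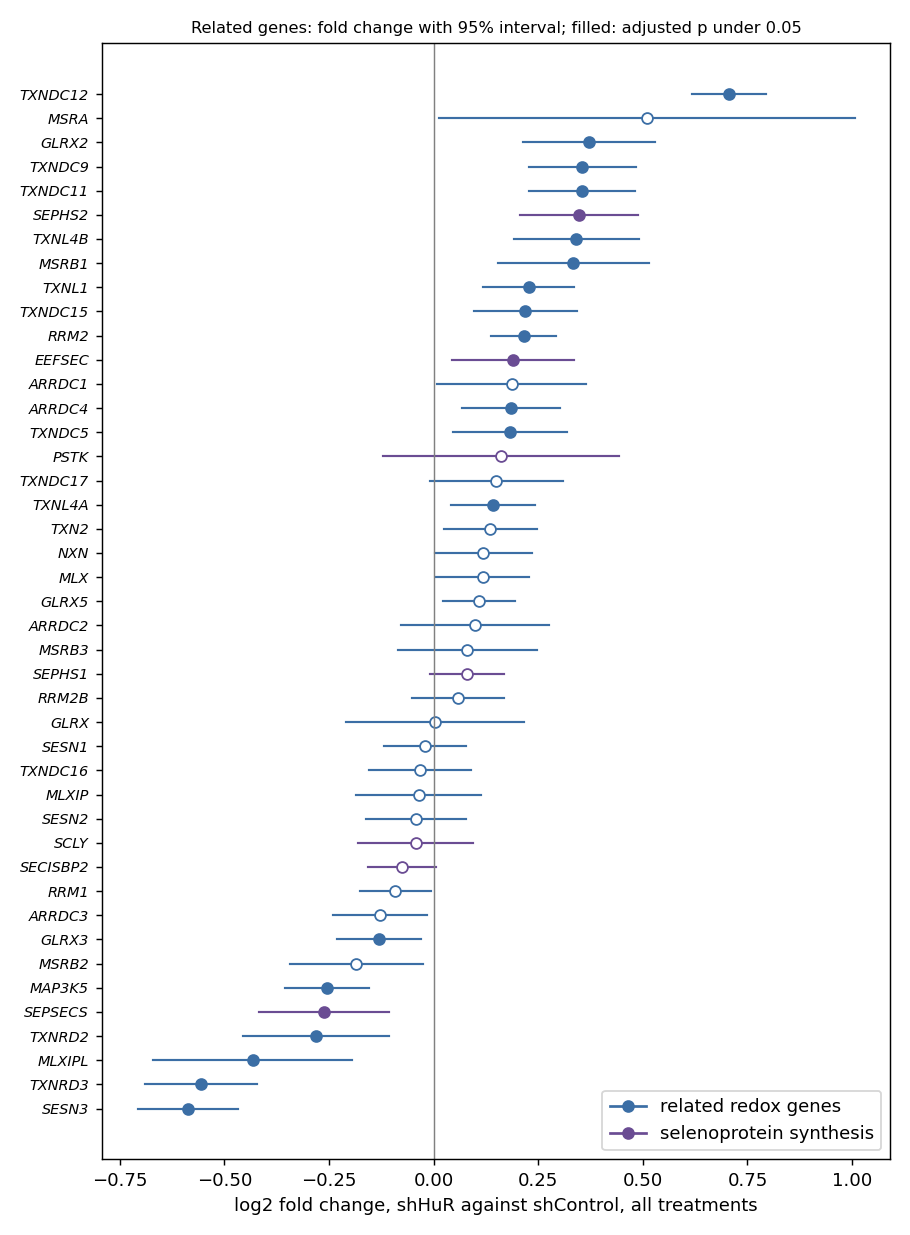
Log2 fold change between shHuR and shControl over all treatments (horizontal axis) for the related redox genes and the genes of selenoprotein synthesis, with 95% intervals. Filled points have an edgeR adjusted p under 0.05. TXNDC12 lies furthest right at 0.71, and SESN3 and TXNRD3 furthest left at -0.59 and -0.56.

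The genes whose pattern over the 12 libraries came closest to TXNRD1 and TXNIP were found among 11269 tested genes with a mean of at least 5 CPM. The measure was the root mean square difference of log2 CPM after centring each gene on its mean. For TXNRD1 they were SNRPA1 (0.0897), a spliceosome protein, HTATIP2 (0.115) and SQSTM1 (0.137), the autophagy receptor p62, against a median of 0.321 over all genes. With HNE over both lines the log2 fold change was 0.58 for SNRPA1 (adjusted p = 0.0305), 0.50 for HTATIP2 (0.0410) and 0.40 for SQSTM1 (0.0270). For TXNIP they were PRKACA (0.211), the catalytic subunit of protein kinase A, IGDCC3 (0.219) and VAMP3 (0.222), a vesicle fusion protein, against a median of 0.548. In shHuR over all treatments PRKACA was higher by 0.79, IGDCC3 by 0.70 and VAMP3 by 0.88. Both trios were picked for their likeness, so these values describe them. The nearest neighbours of TXNIP differed from it by more than those of TXNRD1 did from TXNRD1. TXNIP itself also varied more, with a root mean square of 0.536 about its mean against 0.295 for TXNRD1.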

How the data were processed

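Total RNA of 12 HEK293T cultures was depleted of ribosomal RNA and sequenced from directional single-end libraries, per the labels' protocols. The submitters' processing notes name cutadapt 1.8, Bowtie2 2.2, TopHat2 2.1, Cufflinks 2.2, Cuffnorm, Cuffdiff and the builds GRCh37 and hg19. The use of strand in counting is not given in the sources used here. The authors deposited estimated counts per gene symbol (2.25% of values not whole, none of them in a member), which were rounded here. The authors also deposited FPKM values, used for levels between genes and for alternative fits.

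With filterByExpr (by group, minimum count 10) 16005 of 23615 genes were kept, and libraries were scaled with TMM. Group differences were tested with edgeR 4.0.16 (quasi-likelihood F-test, R 4.3.3) on 6 group means with all 12 libraries. The line effect over all treatments used 12 libraries with treatment as a covariate. Treatment effects over both lines used the 8 libraries compared, with line as a covariate and the filter recomputed. P-values were adjusted over all genes tested (Benjamini-Hochberg, threshold 0.05). The standard error is the log2 fold change divided by the square root of F. The replicates are labelled biological, and with 2 a group each library weighs heavily. Alternatives were DESeq2 1.42.0 (Wald test), other scalings and filters, a replicate block, the compared groups alone, limma 3.58.1 on log2(FPKM + 1) and log2(FPKM + 0.1), which understates changes of low genes, and each library left out in turn. The script was tested on simulated data.

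All members were named whatever their values, the called genes of the related and selenoprotein lists, and the 3 genes most like TXNRD1 and TXNIP. Members and lists were chosen with earlier results of these data known.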

Additional observations from a re-analysis of the deposited data

Results flagged for a closer look

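The libraries of PRDX2, a cytosolic peroxiredoxin, separated in opposite directions in the 2 lines when HNE was added. The gene was picked from the members for this pattern, and the share of all genes that show it was not counted. In shControl both HNE libraries (192 and 229 CPM) lay above both untreated ones (188 and 176 CPM), with a log2 fold change of 0.20. In shHuR both HNE libraries (175 and 185 CPM) lay below both untreated ones (195 and 191 CPM), with a log2 fold change of -0.10. Seen between the lines, the same libraries gave 0.0826 in untreated cells, where shHuR was the higher, and -0.22 with HNE, where shHuR was the lower. Each of the 4 differences missed the threshold by itself. The test of the difference between the responses gave -0.31 (SE 0.117, unadjusted p = 0.0204, edgeR adjusted p = 0.712). Without shControl HNE replicate 2 it was -0.18, and without replicate 1 it was -0.42 (adjusted p = 0.0683). No alternative fit called it.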

How the results depend on the processing

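The higher TXNIP in shHuR kept its call in all 22 alternatives for each treatment and all 21 over the treatments. TXNRD1 kept its call with HNE in 21 of 22 alternatives within shHuR and in 14 of 17 over both lines. Estimates within 1 SE of 0 that no fit called were given no direction. With HNE, the line called 2 members instead of 1 by DESeq2, library size alone, no filter and mean CPM of at least 1, and over all treatments 2 by library size alone and no filter. HNE in shControl called 1 by DESeq2 and library size alone and 2 with no filter, and in shHuR 2, 3 and 0 by DESeq2, no filter and limma without a filter. HNE over both lines called 4 by DESeq2 and no filter, and 0 by the 3 limma fits. HNE against H2O2 called 5 by DESeq2 and no filter, 3 by library size alone (PRDX1 added), 1 by limma on log2(FPKM + 0.1) and 0 by the other limma fits. Replicate numbers did not pair the samples, since over 15 pairs of groups the deviations of same-numbered libraries correlated across genes from -0.44 to 0.43 (median -0.05). With the replicate number as a block HNE against H2O2 called 1, as TXNIP then had an adjusted p of 0.0661, and no other count of members changed. With 1 library left out, the counts ran from 1 to 4 (line with HNE), 1 to 2 (line over all treatments), 0 to 4 (HNE in shControl), 1 to 2 (HNE over both lines) and 1 to 5 (HNE against H2O2), and the others stayed. A group left with 1 library was assumed to vary like the others. Without shControl HNE replicate 2, the line difference with HNE turned to 0.0869 for TXN, 0.0158 for PRDX4 and 0.0205 for PRDX5. Without replicate 1 these were at -0.30, -0.15 and -0.53. For PRDX5, leaving out replicate 1 or 2 gave 0.45 or -0.11 for HNE in shControl, 0.21 or -0.0181 for HNE against H2O2 and -0.54 or 0.0130 for the interaction with HNE. The cause was not tested. Over all genes, the share called ranged from 1.48% to 12.5% for the line in untreated cells, 0.999% to 11.5% with HNE, 1.76% to 11.3% with H2O2 and 19.5% to 34.6% over all treatments. It ranged up to 5.24% for HNE in shControl, 0.00957% to 0.949% in shHuR, 0.00487% to 1.63% over both lines and 0.00975% to 3.27% for HNE against H2O2. It reached at most 0.571% for H2O2 and 0.531% for the interactions. No scaling moved the median of all genes by more than 0.1.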
